A study of Pinus pinaster with 24 samples.

Results

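The transcripts described here are the 150 whose level peaked most clearly in the meristem of maritime pine (Pinus pinaster) root tips, of 51211 transcripts measured. They were chosen from the values themselves. For each transcript the mean level was taken over the 6 libraries of each dissected area. Transcripts with a meristem mean of at least 3 CPM (the deposited name for read counts scaled per library) were kept, which left 28866. These were ranked by the log2 ratio of the meristem mean to the highest mean among the other areas, with 0.5 CPM added to both, and the first 150 were taken. Differences between the meristem and the other areas among these members are therefore described and not tested.

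Gene expression was measured by RNA sequencing in seedlings of 1 month from the Segura-Alcaraz provenance, all kept without a nitrogen source for 3 days and then irrigated with 80 mL of 3 mM potassium nitrate or, as control, 3 mM KCl. Root tips of 5 to 6 mm were frozen 2 h later. Meristem, root cap, developing cortex and developing vascular tissue were cut by laser from sections of 30 µm, by position. The labels call the areas approximate. Each area has 3 libraries with nitrate and 3 with KCl, numbered by experiment, which makes 24 libraries. The number of seedlings behind a library, and whether experiments were grown apart, are not in the labels. The p-values therefore cover the variation between libraries, which may be technical.

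The root apical meristem lies behind the root cap and supplies the cells of the root by division. Cells leaving it toward the tip become cap, and cells leaving it toward the base enlarge and differentiate into cortex, vascular tissue and the other tissues of the root. In flowering plants such as Arabidopsis it is known for high levels of cell cycle and DNA replication transcripts, histones and PLETHORA transcription factors. Which of the 150 belong to such families is not known here, because the sources used here pair 0 of the transcript IDs with a gene name, and sequences were not analysed here. The members are therefore described by their IDs and levels, and the tissue labels were not checked against marker genes. CPM values are not divided by transcript length, so levels are compared mainly between libraries. Where members are called abundant or set against each other by level, CPM is meant, which also depends on transcript length. In dissected tissue, fewer cells of a type and less RNA per cell cannot be told apart.

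The libraries held 45262154 to 51517525 reads, and 3 reads corresponded to at most 0.074 CPM. A few libraries stood apart in the content of area transcripts. For this comparison the same ranking was applied to each other area, which gave 150 transcripts of the cap, 150 of the cortex and 150 of the vascular tissue. In replicate 1 of the KCl vascular libraries, the 150 meristem transcripts summed to 1713 CPM and the vascular ones to 1480 CPM. In the other vascular libraries the meristem transcripts summed to 477 to 869 CPM, and the vascular ones to 4792 to 9077 CPM. The KCl cortex library of the same number held 1639 CPM of the meristem transcripts, against 837 to 1025 CPM in the other cortex libraries. In the KCl cap libraries the meristem transcripts summed to 1213, 1038 and 296 CPM, while the cap ones summed to 33664, 42076 and 76929 CPM. The part of neighbouring tissue in these values was not tested.

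**Figure D1:**
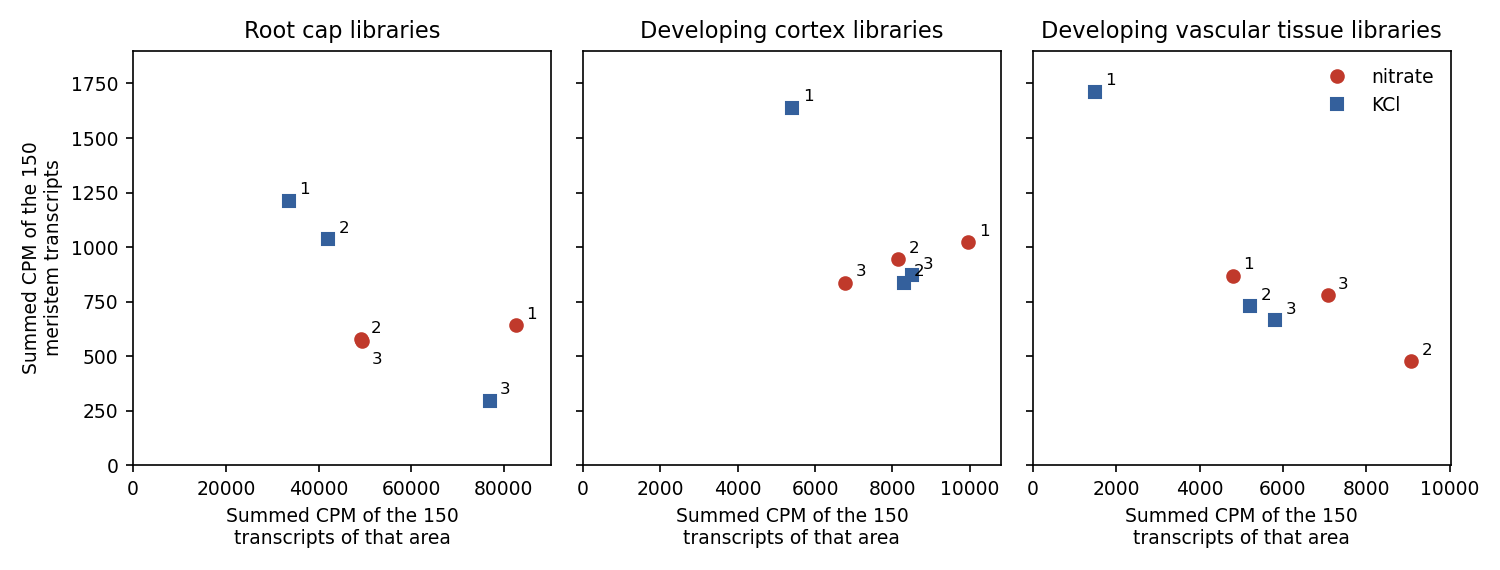
Summed CPM of the 150 meristem transcripts (vertical axis) against the summed CPM of the 150 transcripts ranked highest for the library's own area (horizontal axis), 1 point per library with its replicate number, for cap, cortex and vascular libraries. KCl replicate 1 lies highest on the vertical axis in all 3 panels, at 1213, 1639 and 1713 CPM, and in the vascular panel it lies lowest on the horizontal axis, at 1480 CPM.

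As a group, the members made up a small part of the RNA in every area. They held 0.48% ± 0.0384 of the CPM in meristem libraries, 0.0655% ± 0.0301 in cap libraries, 0.105% ± 0.0307 in cortex libraries and 0.0912% ± 0.0402 in vascular libraries (SD, n = 6 each). Their meristem means ran from 3.03 to 436 CPM with a median of 10.8 CPM. Their median area mean was 1.27 CPM in cap, 1.51 CPM in cortex and 2.0 CPM in vascular libraries. A few abundant transcripts carried much of the sum: the 3 most abundant held 23.7% ± 6.03 and the 10 most abundant 45.2% ± 6.02 of it in the meristem libraries (SD, n = 6).

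The peak was modest for most members. The ratio of the meristem to the next area, both with 0.5 CPM added, was 7.67 for the first, 2.97 at the median and 2.34 for the last, and it was 4 or more for 26 of the 150. The lists made by the same rule had median ratios of 55.3 (cap), 8.18 (cortex) and 19.3 (vascular tissue). At the edge of the list, pp_89820 (rank 150) had 9.75 CPM in the meristem and 3.88 CPM in the vascular tissue, and pp_56519 (rank 151, not a member) had 18.1 and 7.49 CPM. Their ratios of 2.34 and 2.33 show that the list ends in a continuous range and not at a gap.

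In 83 of the 150 members, the lowest of the 6 meristem libraries lay above the highest of the 18 other libraries. Of all 28866 transcripts with a meristem mean of at least 3 CPM, 1.32% were separated in this way, but the ranking used this contrast and nothing is read from the difference. Without the KCl vascular replicate 1 the count was 94, against 1.83% of the transcripts, and without that library and its cortex partner it was 97, against 2.0%. Within single sets of 4 libraries that share a solution and a number, the meristem library was the highest for most members. With nitrate this held for 148 members in experiment 1 (23.5% of the 51044 transcripts tested), 148 in experiment 2 (29.8%) and 149 in experiment 3 (24.8%). With KCl it held for 138 members in experiment 1 (17.3%), 149 in experiment 2 (24.0%) and 150 in experiment 3 (24.2%). In KCl experiment 1, 12 members were higher in the vascular library. In 133 members the meristem library was highest in all 6 sets, against 3.38% of the tested transcripts. The ranking used the same contrast in the same libraries, so nothing is read from the differences within sets either.

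**Figure D2:**
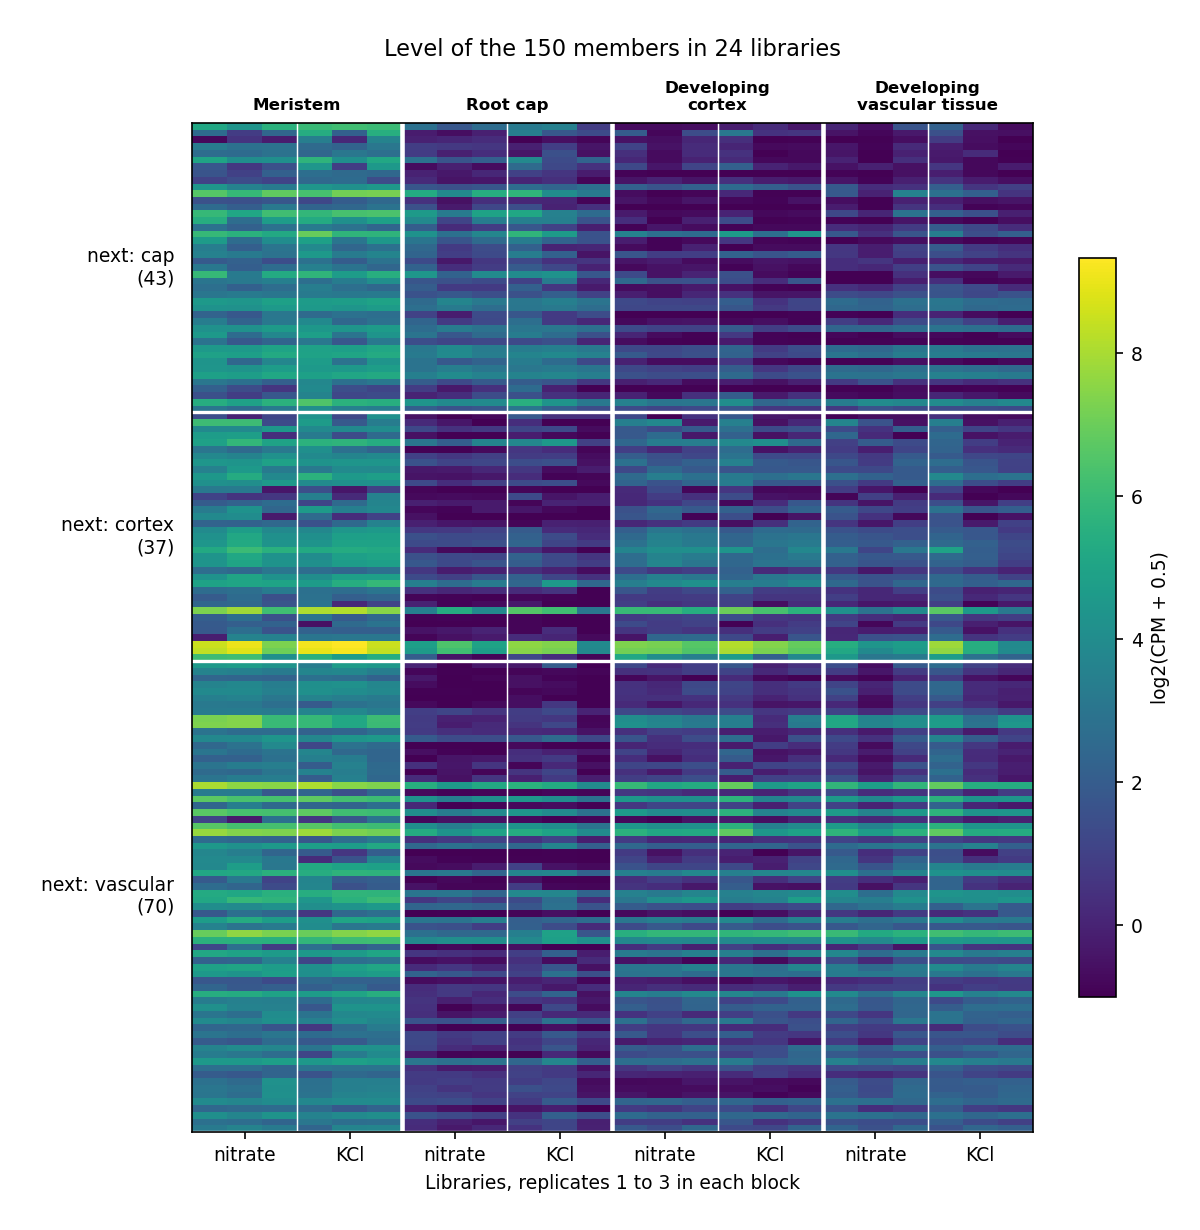
Level of the 150 members as log2(CPM + 0.5), 1 row per member and 1 column per library, with nitrate left of KCl within each area. Rows are grouped by the area with the next highest mean (cap 43, cortex 37, vascular tissue 70) and ordered by rank within a group. Rows are brightest in the meristem columns, and the third KCl column of the cap and the second nitrate column of the vascular tissue are dark for many rows.

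The transcript ranked first, pp_57811, was high in the meristem and low but present in the cap. It had 35.6, 19.7 and 47.3 CPM in meristem libraries with nitrate, against 61.2, 70.9 and 65.6 CPM with KCl. Its cap libraries ranged from 1.3 to 10.8 CPM with a median of 6.22 CPM. All 6 cortex libraries were below 1 CPM, at 0.141 to 0.717 CPM, and the vascular ones ran from 0.109 to 4.09 CPM, the highest again in KCl replicate 1.

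The members ranked next had lower levels in the cap than in the other areas. The transcript pp_226473 had a median of 22.2 CPM in the meristem (9.91 to 25.4 CPM), 0.287 CPM in cap (0 to 3.48 CPM), 1.13 CPM in cortex (0.453 to 2.89 CPM) and 1.88 CPM in vascular libraries (0.15 to 5.82 CPM). The highest cap value was that of KCl replicate 2. Its neighbour by number, pp_226474, had the same order of areas at a lower level, with medians of 7.2, 0.094, 0.456 and 0.727 CPM. The 4 consecutive IDs from pp_163593 to pp_163596 took ranks 6, 3, 5 and 7. Of these, pp_163594 had a median of 11.3 CPM in the meristem (8.74 to 13.3 CPM). In any cap library it had at most 0.086 CPM, a level of few reads. In the cortex it had 0.641 to 1.6 CPM and in the vascular tissue 0.263 to 2.93 CPM. The meristem libraries of these 4 transcripts did not overlap with any other library.

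Rank 4 was taken by pp_153306, which was low everywhere outside the meristem. It had 4.29 to 6.53 CPM in the meristem libraries, at most 0.285 CPM in the cap, 0.717 CPM in the cortex and 1.22 CPM in the vascular tissue. It was 1 of 13 members whose mean was under 1 CPM in all 3 other areas. These had meristem means of 3.03 to 6.81 CPM. The 54 members with at least 1 CPM in every area had a median meristem mean of 25.6 CPM.

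The next highest area divided the members into 3 groups, with 43 members next in the cap, 37 next in the cortex and 70 next in the vascular tissue. This division rests in part on the KCl vascular replicate 1, without which 43 members had the vascular tissue as next area and 61 the cortex. The most frequent full order was meristem, vascular tissue, cortex, cap, in 56 members, followed by meristem, cortex, vascular tissue, cap in 30. The cap had the most members with a mean under 1 CPM, 65, while the cortex had 50 and the vascular tissue 32. All 150 members had reads in every meristem library, while 5 to 29 had 0 reads in a cap library.

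Among the 43 members next in the cap, 27 had a cortex mean under 1 CPM and 21 a vascular mean under 1 CPM. In 11 members, only the cap reached 1 CPM besides the meristem. The highest ranked of these, pp_68330, had means of 28.5 CPM in the meristem and 5.66 CPM in the cap, and 0.34 CPM in the cortex and 0.28 CPM in the vascular tissue. Several IDs close to it in number, from pp_68309 to pp_68320, were also members next in the cap. The transcript pp_213731 had 3.78 to 8.56 CPM in the meristem, 0.33 to 2.5 CPM in the cap and 0 reads in all 6 cortex libraries. The most abundant of the 43 members next in the cap, pp_57747, had a meristem mean of 105.8 CPM. Its cap and vascular means were 29.3 and 4.44 CPM, but it had 0.14 CPM in the cortex.

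The 37 members next in the cortex included those with the highest meristem CPM. The adjacent IDs pp_211540, pp_211541 and pp_211542 had median levels of 394, 204 and 443 CPM in the meristem. For pp_211542 the nitrate meristem libraries had 366, 520 and 158 CPM, against 561, 645 and 366 CPM with KCl. Its cortex libraries lay between 97.8 and 283 CPM, its cap libraries between 14.9 and 191 CPM and its vascular libraries between 14.7 and 224 CPM. The meristem and cortex ranges overlapped, since the nitrate meristem replicate 3 was below 3 of the cortex libraries. The highest vascular value was that of KCl replicate 1, and the other vascular libraries had 43.3 CPM or less.

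Among the 70 members next in the vascular tissue, a run of 5 adjacent IDs, from pp_233300 to pp_233304, stood out by level. The transcript pp_233300 had 258, 193 and 181 CPM in nitrate meristem libraries, against 263, 179 and 161 CPM with KCl. Its values were 15.5 to 47.9 CPM in cap, 24.1 to 117 CPM in cortex and 26.2 to 116 CPM in vascular libraries, so the meristem lay above all other libraries. The neighbouring pp_233302 had 140 to 224 CPM in the meristem and at most 111 CPM elsewhere. The pair pp_104847 and pp_104848 was highest in the meristem, lower in the vascular tissue and cortex, and almost missing from the cap. Means were 92.7 and 91.9 CPM in the meristem and 19.9 and 19.0 CPM in the vascular tissue. Cortex means were 9.94 and 9.65 CPM, and cap means were 0.86 and 0.77 CPM. The vascular values of pp_104847 reached 36.1 CPM and overlapped its meristem values, which ran from 35.9 to 169 CPM.

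**Figure D3:**
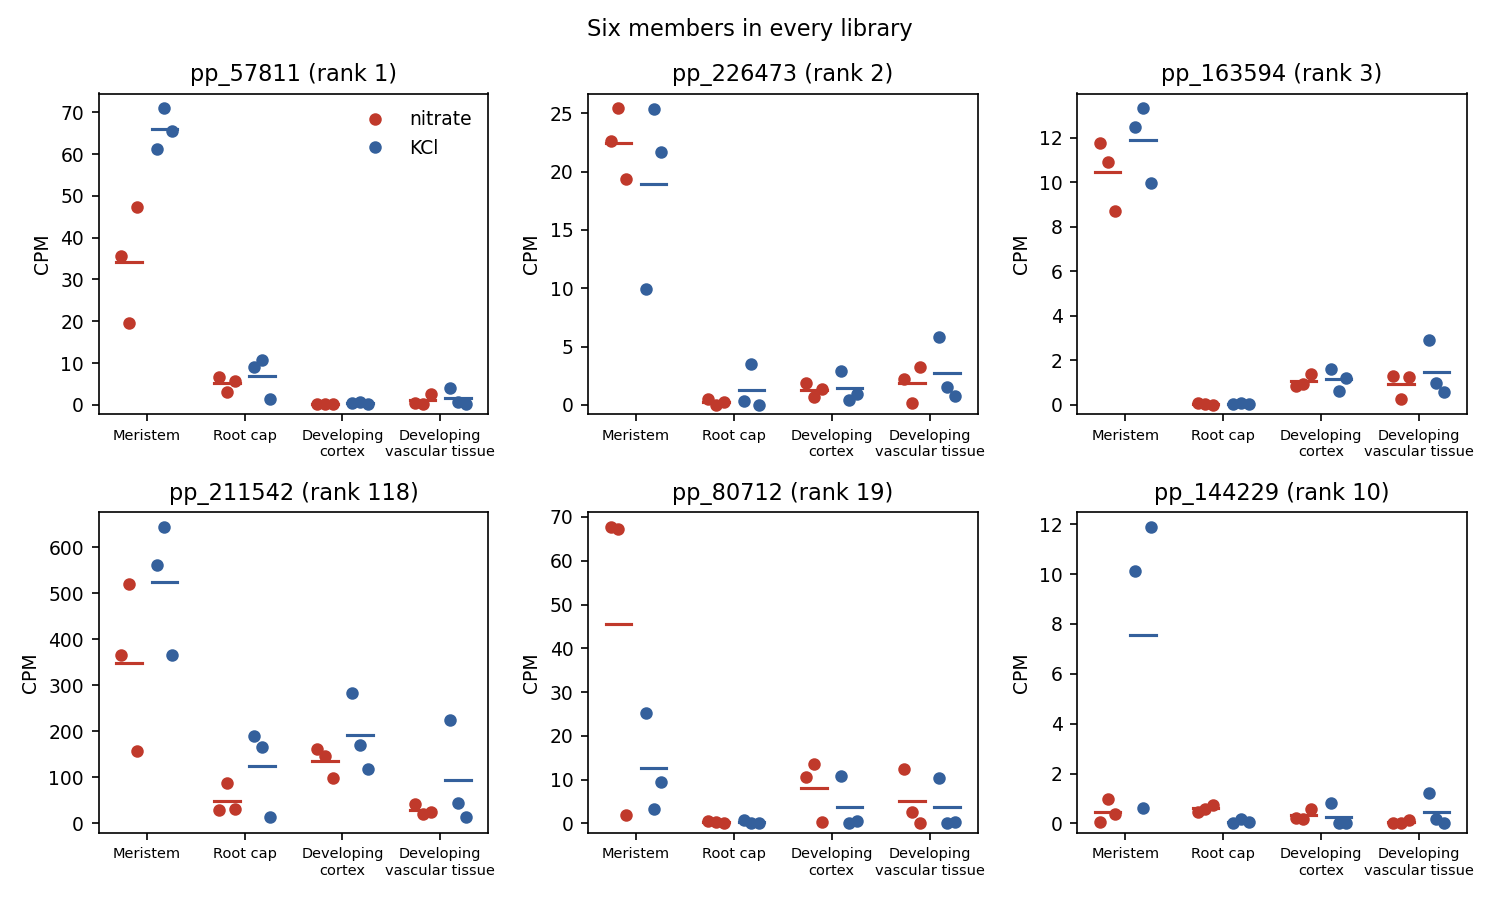
CPM of 6 members in each of the 24 libraries, by area on the horizontal axis, with nitrate libraries left of KCl libraries; dots are libraries and bars are means of 3. The first 3 ranks (pp_57811, pp_226473 and pp_163594) and the most abundant member, pp_211542, are high in most meristem libraries, whereas pp_80712 reaches 67.7 CPM and 1.97 CPM, and pp_144229 11.9 CPM and 0.077 CPM, within the meristem.

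Members varied more between the meristem libraries than all transcripts with a meristem mean of at least 3 CPM, which were not matched to them by level. The highest meristem library was a median of 2.45 times the lowest in the members, both with 0.5 CPM added, and 1.59 times in all 28866 transcripts over the floor. A spread of at least 10 times was seen in 12 members (8.0%) and in 2.36% of all. A mean over 6 libraries can pass the rule through a few high libraries, so this spread is partly tied to the choice. Of the 12, 8 came from 2 ID neighbourhoods, described next.

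The members pp_80712, pp_80713, pp_80715 and pp_80716 were high in some experiments and low in others. In the meristem, pp_80712 had 67.7, 67.3 and 1.97 CPM with nitrate, against 25.3, 3.19 and 9.5 CPM with KCl. In the cortex it had 10.5, 13.7 and 0.33 CPM with nitrate, against 10.7, 0.19 and 0.65 CPM with KCl. In the vascular tissue it had 12.5, 2.59 and 0.19 CPM with nitrate, against 10.4, 0.19 and 0.43 CPM with KCl. The cap had at most 0.79 CPM. Nitrate experiments 1 and 2 and KCl experiment 1 were the 3 highest in each of the 4 areas, so libraries with the same solution differed while libraries of a set were high or low together.

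The members pp_179986, pp_179990, pp_179993 and pp_179995 were high in meristem libraries 1 and 3 with KCl. In the meristem, pp_179995 had 5.69, 1.31 and 4.84 CPM with nitrate, against 42.2, 4.01 and 44.3 CPM with KCl. In the cap it had 0.36, 0.15 and 0.44 CPM with nitrate, against 10.2, 2.96 and 2.06 CPM with KCl. The cap groups did not overlap, but in the meristem KCl replicate 2 lay among the nitrate libraries. The transcript pp_144229, with rank 10, had 0.077, 0.979 and 0.359 CPM in nitrate meristem libraries, against 10.1, 0.605 and 11.9 CPM with KCl. Its place in the list thus rested on 2 libraries, and its median over the 6 meristem libraries was 0.792 CPM.

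Many members were neighbours by ID and may be copies or variants of the same transcript, so the 150 are not that many independent genes. IDs at most 3 numbers apart were joined into runs, which gave 78 runs, 43 of them with a single member. The other 35 runs held 107 members. The longest had 7 members each, from pp_205996 to pp_206002 and from pp_118294 to pp_118300. Across the 24 libraries, the median Pearson's r between members of a run was 0.981 at the median over runs (0.795 to 0.998), and between all pairs of members it was 0.694. These correlations describe the libraries and hold the difference between areas by which the members were chosen. In 30 of the 35 runs all members shared the same next area. Reads from near-identical copies may have been divided between IDs by the authors' counting, so the levels of single members of a run are uncertain.

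Whether a peak chosen in libraries of one solution also appeared in the other was tested on libraries that the choice had not used. The same rule applied to the KCl libraries alone gave 150 transcripts, of which 123 were members, and to the nitrate libraries alone 150 transcripts, of which 114 were members. In the nitrate libraries, 146 of the 150 KCl-chosen transcripts again had their highest area mean in the meristem, and by limma 110 exceeded all 3 other areas (adjusted p below 0.05 in each comparison), against 1.68% of the 49493 transcripts tested. Of these 150, 145 passed the filter on low values in the nitrate libraries. That filter asked for 1 CPM in 3 libraries of any area, without the meristem floor of 3 CPM. The share over all transcripts was thus not matched to the list by level. Their median log2 ratio of the meristem to the next area was 1.41 in the nitrate libraries, compared with 1.61 in the KCl libraries that chose them. With edgeR 84 were called, against 0.788%, and with the experiment number as a block 128, against 2.57%. With all nitrate libraries, most of these transcripts thus passed as higher on average in the meristem than in each other area. The limma count was 79 without nitrate experiment 1, 88 without experiment 2 and 75 without experiment 3. For these refits the share over all transcripts was not taken.

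In the KCl libraries, 148 of the 150 nitrate-chosen transcripts were highest in the meristem by mean, with a median log2 ratio of 1.45 against 1.58 in the nitrate libraries. Fewer passed the test, 55 by limma (142 of the 150 passed the filter) against 0.548% of 48868 transcripts, and 24 by edgeR against 0.268%. With the experiment number as a block 86 were called, against 1.05%. These shares over all transcripts were not matched to the list by level either. The count was 64 without KCl experiment 1, 14 without KCl experiment 2 and 9 without KCl experiment 3. The share of all transcripts called was not taken in these refits, so the fall is not read as a result about the list. The difference between the 2 directions of this check was not tested.

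By limma, nitrate changed 0 of the 150 members past the threshold in any area. The contrast of nitrate minus KCl was not used by the ranking, which averaged over both solutions, and was fitted by limma on all 51044 transcripts tested, on log2(CPM + 0.5), where changes of low transcripts are understated. A member can still enter the list through high libraries of a single solution. All 150 members were tested. At an adjusted p below 0.05, 0 members were called in the meristem (background 0.0784%), 0 in the cap (0.907%), 0 in the cortex (0.208%), 0 in the vascular tissue (0.415%) and 0 for the mean over the 4 areas (2.94%). The nitrate effect differed between areas in 0 members by the F test (0.098% of all). In any single area, a share this low corresponds to few calls in a list of 150. The smallest adjusted p of a member by limma was 0.49 in the meristem (pp_144229), 0.287 in the cap (pp_179995), 0.777 in the cortex (pp_75039) and 0.238 in vascular libraries (pp_94423).

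At an unadjusted p below 0.05, limma had 13 members in the meristem (4.45% of all transcripts), 7 in the cap (10%), 1 in the cortex (5%) and 4 in vascular libraries (10.5%). For the mean over areas it had 17 (18%) and for the difference between areas 1 (4.24%). By edgeR the adjusted count was 0 in each area (backgrounds 0.0333% in the meristem, 0.231% in the cap, 0.0999% in the cortex and 0.153% in vascular libraries) and 0 for the difference between areas (0.0118%). At an unadjusted p below 0.05 edgeR had 6, 15, 3 and 3 members in the meristem, cap, cortex and vascular tissue (4.77%, 10.8%, 4.73% and 8.95% of all), 24 for the mean (17.3%) and 1 for the difference (3.47%). For the mean over areas, edgeR called 1 member (2.88% of all), pp_179995, with a fall of 2.48 on the log2 scale (adjusted p = 0.0385 by edgeR, 0.0733 by limma). DESeq2 called 0 members in the meristem (0.305% of all), 3 in the cap (2.22%), 0 in the cortex (0.491%), 0 in the vascular tissue (0.67%), 5 for the mean (7.1%) and 0 for the difference (0.203%). All of its calls were lower with nitrate: pp_179995, pp_179986 and pp_211719 in the cap, and pp_179995, pp_179993, pp_179986, pp_211541 and pp_94423 for the mean. Libraries of a set deviate together, so p-values for this mean are too small. In addition, pp_179995, pp_179993 and pp_179986 entered the list through high meristem values in KCl replicates 1 and 3. The mean over areas includes that meristem difference, so nothing is read from their calls for the mean.

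By size, the members tended to be slightly lower with nitrate in the meristem. Their median change there was -0.15 on the log2 scale, compared with -0.01 over all transcripts, and 51 of the 150 changes were positive, against 48.5% of all. Without KCl replicate 3 the median was -0.06 and without nitrate replicate 2 it was -0.07, with 83 and 85 negative changes in place of 99. The median SD of a member between replicates was 0.39 on the same scale, which describes single members and not the uncertainty of the list's median. The shift of the list was not tested. All 3 nitrate meristem libraries lay below all 3 KCl ones in 9 members (5.11% of all transcripts) and above them in 1 (4.71%). In the cap 6 members were lower in this sense and 4 higher (3.62% and 4.7% of all), in the cortex 2 and 4 (6.11% and 6.54%), and in the vascular tissue 3 and 0 (7.75% and 11.8%). The nitrate meristem replicate 3 also had the lowest sum over the members, 3262 CPM, while the others with nitrate had 4246 and 4440 CPM and the KCl libraries 4303 to 4746 CPM.

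The downward shift in the meristem lay mostly in the members next in the cap. Of these 43, 41 had a negative change, with a median of -0.40 on the log2 scale. The 43 include pp_144229, pp_179995 and pp_179986, which entered the list through high KCl meristem libraries. The negative changes of these members are therefore tied to the choice. The median was -0.07 in the 37 members next in the cortex and 0.00 in the 70 next in the vascular tissue. Among all 836 transcripts over the floor that were highest in the meristem and next in the cap, 65.8% were negative and the median was -0.09. Leaving out 1 meristem library at a time, the median of the 43 ran from -0.66 to -0.15. Summed over the 43 members, the nitrate meristem libraries had 822, 501 and 785 CPM, against 1113, 805 and 1029 CPM with KCl, so the groups overlapped by 1 library. The 43 form 24 runs, no member of them passed the limma test, and the difference between the groups of members was not tested.

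**Figure D4:**
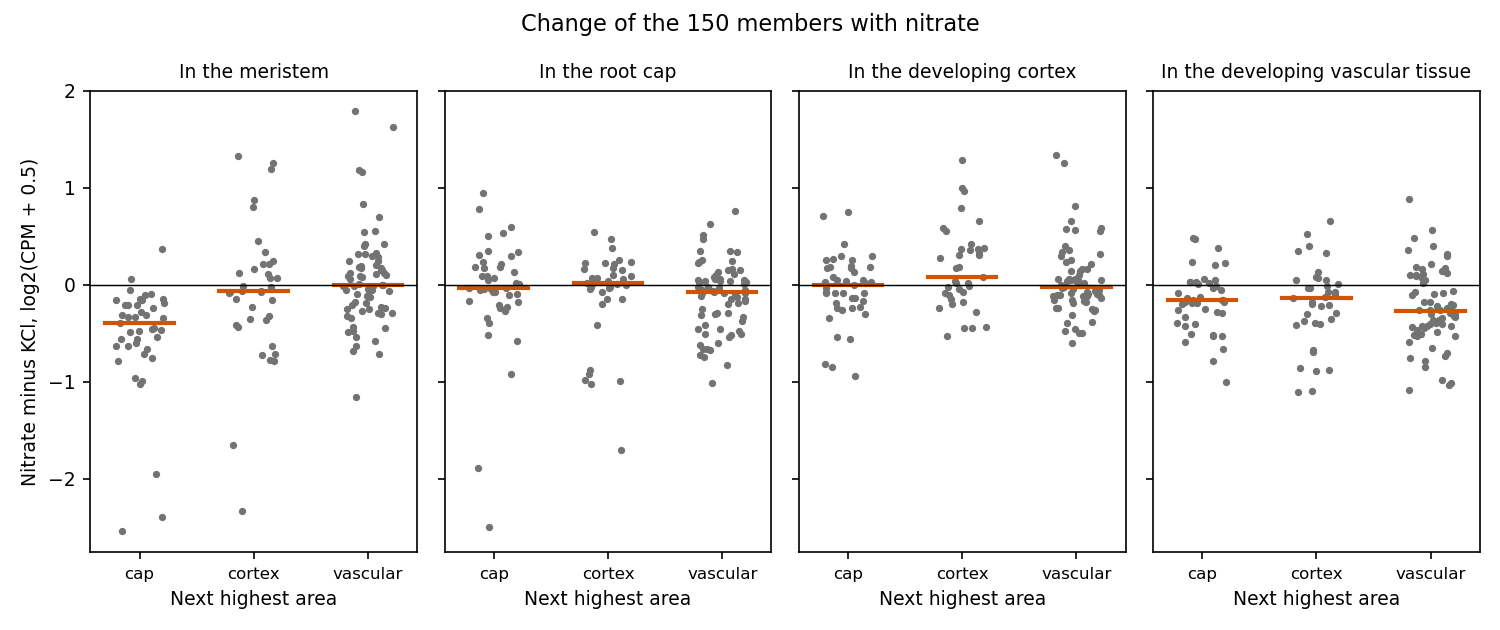
Change of each member between nitrate and KCl libraries, as the difference of means of log2(CPM + 0.5), in each of the 4 areas; dots are members, grouped by next highest area, and bars are medians. The group next in the cap lies mostly below 0 in the meristem, with a median of -0.40, and medians in the other areas lie between -0.27 and 0.08; by limma and by edgeR, 0 members passed the threshold in any area.

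Changes of single members in the meristem were large for some members and small for others. The limma standard error of a transcript is pooled over all 8 groups. For pp_57811, whose nitrate and KCl meristem libraries did not overlap, the change was -1.02 with a standard error of 0.68 (adjusted p = 1.0, limma). For pp_144229 it was -2.54 with a standard error of 0.66 (adjusted p = 0.49, limma). Without KCl replicate 2 it was -3.67 and passed the threshold, but this transcript entered the list through KCl replicates 1 and 3, so nothing is read from that call. For pp_117886, high in the 3 nitrate meristem libraries at 14.2, 14.2 and 8.38 CPM, the KCl libraries had 0.724, 2.52 and 12 CPM, and the change was 1.79 with a standard error of 0.61 (adjusted p = 0.926, limma). Among the other first ranks, the change was -0.18 with a standard error of 0.35 for pp_163594, 0.33 with a standard error of 0.74 for pp_226473 and -2.39 with a standard error of 0.91 for pp_179995.

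In the other areas, the members' medians depended on single libraries. In the vascular tissue the median change was -0.20, against 0.02 over all transcripts, but 0.04 without KCl replicate 1 and 0.02 without nitrate replicate 2. KCl replicate 1 held the highest vascular value in 98 of the 150 members (65.3%, against 22.4% of all transcripts), and nitrate replicate 2 the lowest in 87 (58.0%, against 20.4%). In the cap the median was -0.03 and became -0.31 without KCl replicate 3, which held the lowest cap value in 78 members (52.0%, against 22.4%). In the cortex it was 0.00, and 0.17 without KCl replicate 1, the highest in 72 of 149 members with reads there (48.3%, against 21.6%).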

How the data were processed

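The authors deposited a signal for 51211 transcripts in 24 libraries, named CPM by them and, from the values, read counts scaled per library. Column totals ran from 786966 to 1173829, so they are not strict CPM, and every value was a whole multiple of the value of 1 read within 0.02 reads. The submitters' processing notes name bcl2fastq and BWA; for the read counter, reference and scaling, nothing was found in the labels. After adding 0.5, log2 values went into limma 3.58.1 (R 4.3.3; trend, Benjamini-Hochberg over all transcripts) with a model of 8 group means, for the 51044 transcripts with at least 1 CPM in 3 libraries (167 left out). Recovered reads were tested with edgeR 4.0.16 (quasi-likelihood, TMM) and DESeq2 1.42.0. The fits were also run on simulated counts, drawn independently for each library and without the correlation within sets given next. That run therefore does not show how the tests behave on such sets. Deviations from group means correlated in all 36 pairs of libraries with the same solution and number (0.279 to 0.694), so these were taken as 6 sets; what the libraries of a set share (root tips, day or preparation) is not stated in the labels. No 2 libraries of a group looked like a repeated deposit. The members, lists and tests were chosen with earlier results of these data known. Named transcripts are the first 10 ranks, the 5 most abundant, the first 2 per next area and the edge of the list; others were chosen after their values were seen.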

Additional observations from a re-analysis of the deposited data

How the results depend on the processing

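Of the 150 members, 114 to 144 were again chosen under the other pseudocounts, a floor of 1 CPM, area medians, either solution alone, other scalings, or with 1 experiment left out (133 to 144), but 80 with a floor of 10 CPM. Nitrate calls stayed at 0 in the cortex and the vascular tissue under every alternative run. DESeq2 called 3 members in the cap (2.22% of all transcripts) and 5 for the mean over areas (7.1%), and edgeR 1 for the mean (2.88%). Leaving out 1 library of the area, the counts ran from 0 to 1 in the meristem and 0 to 2 in the cap. The 1 meristem call came without KCl replicate 2, where 0.0666% of all transcripts were called. The 2 cap calls came without KCl replicate 3, where 5.14% of all were called. Leaving out 1 meristem library (those of other areas were not left out), they ran from 0 to 3 for the mean and 0 to 1 for the difference between areas. The highest values came without KCl meristem replicate 2 and KCl cap replicate 3. With the replicate block, 3 members were called for the mean and no other nitrate count changed. For the mean and the difference, the shares over all transcripts were not taken in these refits, so nothing is read from those counts. With a random effect of solution and number, or with 1 mean per solution and number, 0 were called for the mean. Same-numbered nitrate and KCl libraries of an area correlated above 0.1 in 6 of 12 pairs, 13 of 24 libraries matched their own number best and the 4 pairs of experiment 1 lay between 0.103 and 0.298; a pairing of the solutions by number was not shown. The median change in the meristem was -0.17 to -0.06. Of the list chosen in nitrate libraries, 86 were called in KCl libraries with the replicate block (1.05% of all transcripts) and 24 by edgeR (0.268%). With 1 experiment left out the count was 9 to 64, and the reverse count was 75 to 88. The shares over all transcripts were not taken with an experiment left out. Chosen after seeing the data, the comparison without the KCl vascular replicate 1 left 43 members with the vascular tissue as next area, and 54 without its cortex partner too. The causes were not tested.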

Other observations

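Some members were low in the meristem library of 1 experiment. The transcript pp_25405 had 0.424 CPM in the nitrate meristem replicate 1, and 7.52 to 11.8 CPM in the other meristem libraries. The cortex library of the same solution and number had 0.242 CPM and the vascular one 0.613 CPM. The other nitrate libraries had 4.99 and 5.37 CPM in the cortex and 2.48 and 2.65 CPM in the vascular tissue, against 0.415 to 2.78 CPM and 0.952 to 5.8 CPM with KCl. The cap had at most 0.716 CPM. Likewise, pp_155828 had 0.186 CPM in the KCl meristem replicate 1 and 3.28 to 7.17 CPM in the other meristem libraries. The cortex library of the same solution and number had 0.0211 CPM, against 0.849 to 2.02 CPM in the other cortex libraries, but the vascular one had 1.88 CPM, the highest of the 6. These members were chosen after their values were seen, and the difference between experiments was not tested.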
